A study of Rattus norvegicus with 6 samples.

Results

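The 8 genes described here encode receptors, a cofactor and enzymes through which gonadal steroids act in the rat pituitary gland. They are the estrogen receptor genes Esr1, Esr2 and Gper1, the estrogen-induced cofactor gene Greb1, the progesterone receptor gene Pgr, the membrane-associated progesterone-binding protein gene Pgrmc1, and the enzyme genes Srd5a1 and Cyp19a1. They were picked by name, with no measured value in the rule. They are 8 of the 33294 gene symbols in the count files. A low-count filter kept 17292 genes for testing, among them 7 of the 8, and Cyp19a1 did not pass it. Whole pituitary glands came from male Sprague-Dawley rats aged 11 weeks. The mothers carried an osmotic pump rated for 28 days that held nicotine tartrate (6 mg/kg per day) or, for the control rats, saline. Each group has 3 libraries, named here nicotine 1 to 3 and control 1 to 3. The pumps were placed during pregnancy, so the offspring were exposed before birth through the mother and were not treated themselves. The mother was the treated unit, and no source used here ties the rats to litters. The p-values therefore measure the spread between these 6 rats, and littermates among them would not be independent.

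In the male, testosterone from the testis reaches the pituitary and holds back the gonadotrophs, the cells that secrete luteinizing hormone and follicle-stimulating hormone. Part of it acts after conversion, by aromatase (Cyp19a1) to estradiol or by steroid 5-alpha-reductase (Srd5a1) to dihydrotestosterone. Estradiol binds the nuclear receptors ESR1 and ESR2, which act on genes directly, and the G protein-coupled receptor GPER1 in membranes. Pgr is a classical target of estradiol and is made in gonadotrophs, and ESR1 in lactotrophs promotes transcription of the prolactin gene Prl.

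The libraries held 28318383 to 85977002 counts, and the nicotine libraries were deeper on average than the control libraries. The study's own list of reads per library puts the larger numbers with the control rats instead. The groups here follow the sample labels, every direction below rests on them, and the design has no targeted gene that would check them. Levels are given as CPM, which are counts relative to the library's total, after scaling of library sizes by TMM, a method that sets the bulk of genes equal between libraries. Although the extraction text of the labels speaks of testes, the libraries had pituitary profiles. The growth hormone gene Gh1 lay between 52430 and 115800 CPM, and the testis genes Prm1, Tnp1, Sycp3 and Insl3 were at 0.0637 CPM or below in every library. Nicotine 2 stood farthest from the other libraries, with a mean distance of 90.9 in log2 CPM over all tested genes, against 72.0 to 80.7 for the other 5. It was the highest library for 26.9% of tested genes and the lowest for 26.8%. Values of the 8 genes that rest on it are given with and without it.

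Promoter sequences for 5 of the 8 genes were found in RefSeq (build GRCr8). The 3 shown belong to Pgr, whose group difference depended most on a single library, Srd5a1, which varied together with it, and Pgrmc1. In nicotine 2, Pgrmc1 was lowest where Pgr and Srd5a1 were highest. Each sequence is the stretch of 250 bases just before the annotated start, written 5′ to 3′ on the gene's strand. Capitals mark GC boxes (GGGCGG) and CCAAT boxes (CCAAT) on either strand, so that CCGCCC and ATTGG are the same motifs read on the other strand. The positions are chr8:14354148-14354397 for Pgr, chr1:35514664-35514913 for Srd5a1 and chrX:120698360-120698609 for Pgrmc1, all on the plus strand.
Pgr: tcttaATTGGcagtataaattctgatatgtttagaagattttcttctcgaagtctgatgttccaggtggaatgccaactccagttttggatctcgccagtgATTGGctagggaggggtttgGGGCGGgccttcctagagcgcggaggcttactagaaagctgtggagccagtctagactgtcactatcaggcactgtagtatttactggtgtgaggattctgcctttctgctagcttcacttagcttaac
Srd5a1: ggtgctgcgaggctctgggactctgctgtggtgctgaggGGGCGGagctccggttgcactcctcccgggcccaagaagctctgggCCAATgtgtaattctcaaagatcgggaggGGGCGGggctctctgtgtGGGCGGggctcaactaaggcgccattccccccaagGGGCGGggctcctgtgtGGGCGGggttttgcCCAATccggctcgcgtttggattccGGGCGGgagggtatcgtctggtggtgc
Pgrmc1: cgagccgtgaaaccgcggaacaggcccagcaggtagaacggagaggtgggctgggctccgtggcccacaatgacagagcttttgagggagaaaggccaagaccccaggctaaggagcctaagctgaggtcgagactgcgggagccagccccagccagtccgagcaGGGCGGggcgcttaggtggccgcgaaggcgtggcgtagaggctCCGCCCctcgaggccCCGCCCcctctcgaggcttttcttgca

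The 3 stretches differed in base composition. GC content was 46.8% for Pgr, 66.4% for Srd5a1 and 66.8% for Pgrmc1, against a median of 59.2% over the 12763 promoters of tested genes. The Srd5a1 stretch held 6 GC boxes, and 6 or more were found in 1.66% of these promoters. Pgrmc1 held 3 GC boxes, a number reached by 15.3% of promoters, and Pgr held 1. CCAAT boxes were found 2 times each in Pgr and Srd5a1, and 34.8% of promoters held at least 1. The Pgr stretch also held TATAAA, 237 bases before the start, a motif present in 7.13% of promoters on either strand. The consensus estrogen response element, GGTCA followed after 3 bases of any kind by TGACC, was in none of the 5 stretches, and it occurs in 0.0235% of promoters. Its separate arm GGTCA occurred 2 times in the stretch of Esr2 and in 33.4% of promoters. These matches are letters in a short window and say nothing of which factor binds there.

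With all 6 libraries, the difference between nicotine-exposed and control rats passed the test for none of the 7 genes. A gene counted as called when it differed by more than 1.5-fold and its adjusted p was below 0.1. By edgeR's quasi-likelihood test 0 of the 7 were called, as were 0% of all tested genes. DESeq2 also called 0 of the 7, against 0.347% of the genes it tested. At an unadjusted p under 0.05, edgeR counted 0 of the 7, against 6.14% of all genes (3.13% higher and 3.01% lower in nicotine). For all 7 genes the nicotine libraries overlapped the control libraries, whereas the groups did not overlap for 11.3% of all genes (nicotine above in 6.12% and below in 5.14%). The exact two-sided permutation test used below cannot give a p under 0.1 with 3 libraries a group.

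**Figure D1:**
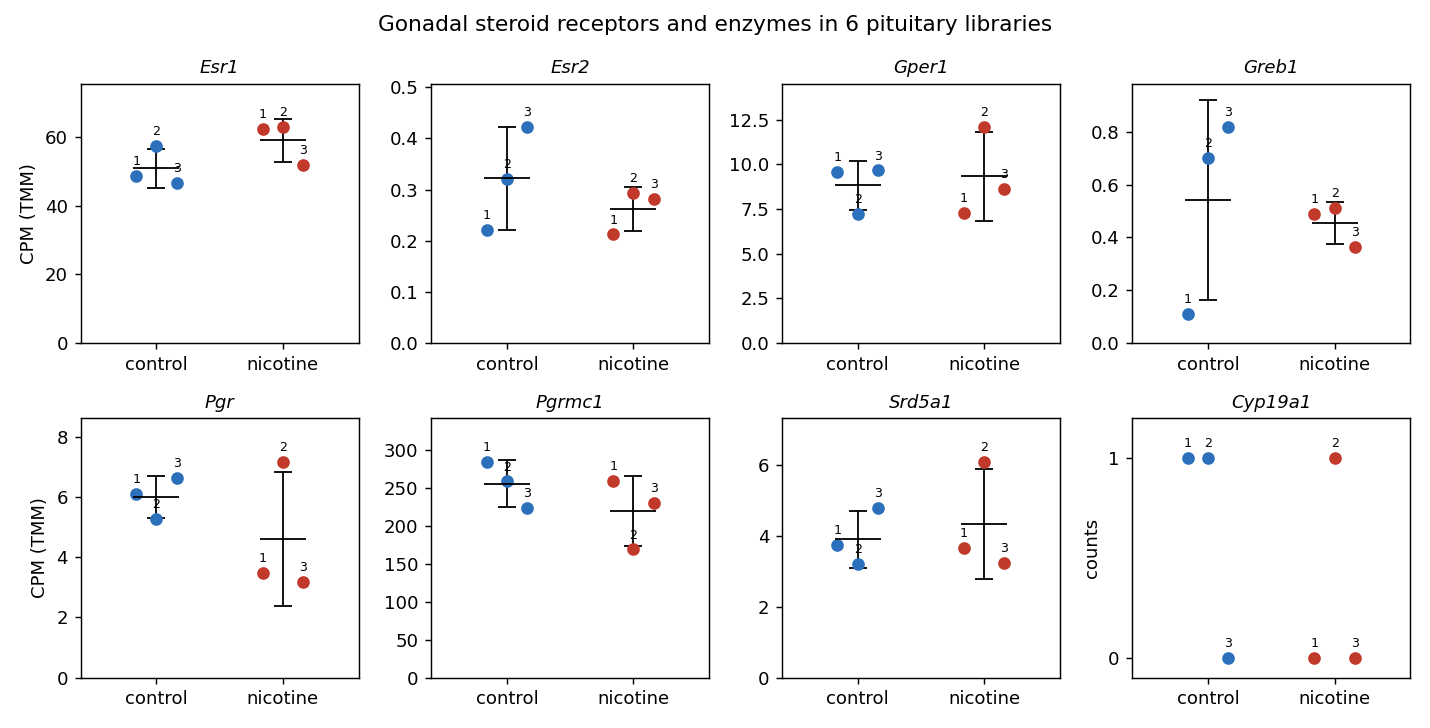
Level of each of the 8 genes in every library, in TMM-scaled CPM on linear axes (raw counts for Cyp19a1). Points are rats, with the replicate number above each, and bars show the mean and SD of 3 rats (none for Cyp19a1). For all 7 tested genes the ranges of the 2 groups overlap, and nicotine 2 is the highest point for Esr1, Gper1, Pgr and Srd5a1 and the lowest for Pgrmc1.

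Esr1, the gene of the main nuclear estrogen receptor of the pituitary, was at 62.3, 63.0 and 51.9 CPM in nicotine 1 to 3 and at 48.7, 57.5 and 46.6 CPM in control 1 to 3. Nicotine 1 and 2 were the highest libraries, while nicotine 3 was below control 2. The means were 59.1 ± 6.21 and 50.9 ± 5.76 CPM (SD, n = 3 each), and the exact permutation p was 0.2. The log2 fold change of nicotine over control was 0.21 (SE 0.16, 95% interval -0.14 to 0.56, edgeR adjusted p = 0.840). The interval reaches from 0.910-fold to 1.48-fold, so a change of 1.5-fold in either direction lay outside it. Esr1 had the narrowest interval of the 7 genes, and its highest library was 1.35 times its lowest.

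Esr2 encodes the other nuclear estrogen receptor and was measured from few counts. The libraries held 10, 27 and 17 counts for nicotine and 6, 17 and 16 for control, or 0.212, 0.293 and 0.281 against 0.222, 0.322 and 0.423 CPM. The highest and the lowest value were in control 3 and nicotine 1, and the other 4 lay between them without order by group. The log2 fold change was -0.30 (SE 0.47, 95% interval -1.33 to 0.73, edgeR adjusted p = 0.914), so neither a loss nor a gain of 1.5-fold could be told from no difference at this depth. For the count of 6 in control 1 alone, the exact 95% Poisson interval runs from 2.20 to 13.1 counts, and it covers counting error only. The ratio of Esr1 to Esr2 counts was 294, 215 and 185 in nicotine 1 to 3 and 220, 179 and 110 in control 1 to 3, again with overlap. It is not corrected for gene length and can be read between libraries, not as a ratio of levels.

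Gper1, which encodes the estrogen-responsive receptor of membranes, was at 7.28, 12.1 and 8.63 CPM in nicotine and 9.56, 7.24 and 9.67 CPM in control. Nicotine 2 was highest and nicotine 1 and 3 lay inside the control range. The means were 9.34 ± 2.50 and 8.83 ± 1.37 CPM (SD, n = 3 each), with a log2 fold change of 0.09 (SE 0.24, 95% interval -0.43 to 0.62, edgeR adjusted p = 0.950). Without nicotine 2 the sign turned, to a log2 fold change of -0.15, and the groups still overlapped. Leaving out control 2 instead gave -0.04.

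Greb1 is induced by estradiol in breast cancer cells, where its protein binds ESR1. Its counts were 23, 47 and 22 in nicotine and 3, 37 and 31 in control, which are 0.488, 0.510 and 0.364 against 0.111, 0.700 and 0.819 CPM. The control libraries spanned the whole range, with control 1 far below every other library and the other 2 controls above all nicotine libraries. The coefficient of variation was 69.8% among controls and 17.4% among nicotine-exposed rats. The exact 95% Poisson interval of the 3 counts in control 1 runs from 0.619 to 8.77 counts, or 0.0229 to 0.324 CPM. It overlaps those of nicotine 1 (0.309 to 0.732 CPM) and nicotine 3 (0.228 to 0.550 CPM). It lies below those of nicotine 2 (0.375 to 0.678 CPM), control 2 (0.493 to 0.965 CPM) and control 3 (0.556 to 1.16 CPM). The log2 fold change was -0.36 (SE 0.50, 95% interval -1.46 to 0.75, edgeR adjusted p = 0.899). It was -0.72 without control 1 and -0.05 without control 3. Leaving out nicotine 2 gave -0.51 and leaving out nicotine 3 gave -0.22, so its size depended on single libraries of both groups.

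Pgr encodes the nuclear progesterone receptor, a transcription factor, and varied more among the nicotine-exposed rats than among the controls. It was at 3.48, 7.18 and 3.17 CPM in nicotine 1 to 3 and at 6.09, 5.26 and 6.63 CPM in control 1 to 3, from 164, 661, 192, 165, 278 and 251 counts. Nicotine 1 and 3 were below every control and nicotine 2 above every control. The means were 4.61 ± 2.23 and 5.99 ± 0.691 CPM (SD, n = 3 each), and the exact permutation p was 0.4. The coefficient of variation was 48.3% in nicotine and 11.5% in control. Over all 6 libraries the log2 fold change was -0.36 (SE 0.32, 95% interval -1.05 to 0.34, edgeR adjusted p = 0.849).

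Without nicotine 2, Pgr was lower in nicotine-exposed than in control rats with no overlap. edgeR then gave a log2 fold change of -0.86 (SE 0.23, 95% interval -1.38 to -0.34), with an unadjusted p of 0.00408 and an adjusted p of 0.522, so Pgr was not called, where that fit called 0.00572% of genes. DESeq2 without nicotine 2, a setting chosen after the data were seen, gave -0.85 with an adjusted p of 0.0910 and called it. Among the genes tested in those fits, DESeq2 called 0.743%, with 0.254% lower, and edgeR had 2.78% lower at an unadjusted p under 0.05. Of the genes tested with all 6 libraries, 9.91% had both remaining nicotine libraries below all controls. With all 6 libraries and sample quality weights, limma voom gave -0.64 with an adjusted p of 0.683. Leaving out the other libraries gave values from -0.45 (without control 2) to -0.15 (without nicotine 3), with no call. No group difference in Pgr is shown by the 6 libraries together. Its direction was the same in every fit, but the fits share libraries and are not separate evidence, and nicotine 2 itself was above every control.

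Pgrmc1 encodes a heme-binding protein of the endoplasmic reticulum and other membranes that is linked to progesterone responses and to cytochrome P450 enzymes. It was at 258, 169 and 230 CPM in nicotine and at 284, 258 and 223 CPM in control. Nicotine 2 was the lowest library and the other 5 mixed. The means were 219 ± 45.9 and 255 ± 30.7 CPM (SD, n = 3 each), with a log2 fold change of -0.22 (SE 0.19, 95% interval -0.65 to 0.21, edgeR adjusted p = 0.849). Without nicotine 2 the log2 fold change was -0.07. The ratio of Pgrmc1 to its paralog Pgrmc2 was 1.66, 1.21 and 1.89 in nicotine against 1.75, 1.76 and 1.47 in control, as counts without length correction.

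Srd5a1, the reductase that makes dihydrotestosterone and also acts on progesterone, was at 3.65, 6.09 and 3.24 CPM in nicotine and at 3.73, 3.20 and 4.78 CPM in control. Nicotine 2 was highest, and nicotine 1 and 3 lay inside the control range. The means were 4.33 ± 1.54 and 3.90 ± 0.806 CPM (SD, n = 3 each), with a log2 fold change of 0.17 (SE 0.30, 95% interval -0.49 to 0.82, edgeR adjusted p = 0.924). Without nicotine 2 the sign turned, to -0.19. The count ratio of Srd5a1 to Srd5a3, a relative that works in protein glycosylation, was 0.239, 0.332 and 0.200 in nicotine and 0.239, 0.213 and 0.356 in control, with overlap.

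Cyp19a1, the aromatase gene, was at or near 0. Nicotine 2, control 1 and control 2 held 1 count each, and the other 3 libraries held 0. A limit of 3 counts per library corresponds to 0.0349 CPM in the deepest library, nicotine 2, and 0.106 CPM in the shallowest, control 1. All 6 libraries held fewer, so no fold change is given. The exact 95% Poisson interval of the 1 count in control 1 reaches 0.206 CPM, so levels up to that value are compatible with the count there. A small cell population with the transcript would be diluted in such samples.

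**Figure D2:**
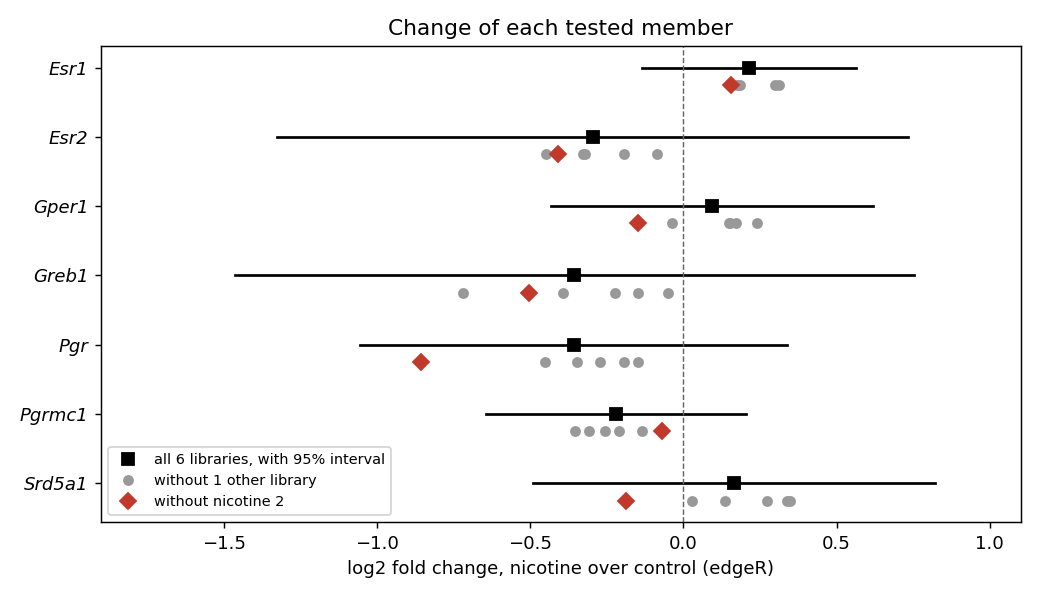
Log2 fold change of nicotine over control for the 7 tested genes, from edgeR. Squares and bars are the estimates and 95% intervals from all 6 libraries, all of which include 0, and the smaller points are estimates with 1 library left out, red diamonds being those without nicotine 2, where Pgr is at -0.86.

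With all libraries 3 of the 7 genes had a log2 fold change above 0 and 4 below, with a median of -0.22 against 0.01 over all tested genes. Without nicotine 2, Esr1 alone was above 0 and the other 6 were below. Nicotine 2 held the highest value for 4 of the 7 genes and the lowest for Pgrmc1. Its level relative to the median of the other 5 libraries was 1.67 for Srd5a1, 1.41 for Gper1, 1.37 for Pgr and 0.653 for Pgrmc1. These are not extreme for that library, since 18.1% of tested genes deviated more than Srd5a1 and 39.3% more than Pgr.

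Gper1 and Srd5a1 ranked the libraries alike, with the same order in 14 of the 15 pairs of libraries. Pgr and Srd5a1 had the same order in 13 pairs, Esr2 and Greb1 in 13, and Pgr and Gper1 in 12. Pgrmc1 had the same order less often, in 5 of 15 pairs with Pgr and with Srd5a1 and in 4 with Gper1. These counts describe 6 libraries that share depth and tissue makeup, and no test was made of them.

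The gonadotroph genes had the same high library. Lhb, the beta subunit of luteinizing hormone, was at 820 CPM in nicotine 2 where the remaining 5 libraries held 75.6 to 223 CPM. The receptor gene of gonadotropin-releasing hormone, Gnrhr, was at 106 CPM there against 21.0 to 34.7 CPM, and the gonadotroph factor gene Nr5a1 at 32.9 against 11.5 to 13.6 CPM. The summed level of the 5 gonadotroph markers was 4819 CPM in nicotine 2 and 2061 to 3445 CPM elsewhere. This was not particular to gonadotrophs. Summed somatotroph markers were also highest in nicotine 2, at 116200 against 52880 to 86850 CPM, as were posterior lobe markers, at 134.8 against 55.4 to 89.2 CPM. The sums of lactotroph, corticotroph and melanotroph, thyrotroph, pericyte and smooth muscle, fibroblast and meninges, and blood markers were lowest in nicotine 2. Prl was lowest there, at 17550 CPM against 25330 to 38040 CPM. Whether the makeup of that gland has a part in the levels of Pgr, Gper1, Srd5a1 and Pgrmc1 was not tested. In whole glands, fewer cells of a type and less RNA per cell cannot be told apart.

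Markers of several other cell types had values to one side in the groups as labelled, although edgeR called none of them and DESeq2 called 1, the smooth muscle gene Acta2. Below 0 were all 6 fibroblast and meninges markers (median log2 fold change -0.76, 5 under an unadjusted p of 0.05), all 6 blood markers (-1.497, 6 under 0.05), all 6 macrophage and lymphocyte markers (-0.55, 2 under 0.05) and 4 of 5 corticotroph and melanotroph markers (-0.67, 1 under 0.05). Above 0 were all 5 gonadotroph markers (0.74, 3 under 0.05), all 5 endothelial markers (0.44, 3 under 0.05), all 5 pericyte and smooth muscle markers (0.94, 2 under 0.05) and 4 of 5 posterior lobe markers (1.40, 3 under 0.05). Over all tested genes, 3.13% were higher and 3.01% lower at an unadjusted p under 0.05 in edgeR. The groups did not overlap for only 1 of the 6 blood markers. The blood markers S100a8, S100a9 and Camp were lower in control 2 than in every nicotine library. The summed levels overlapped between the groups for blood, at 2526 to 7840 CPM in nicotine against 6714 to 14210 CPM, and for gonadotrophs, at 2436 to 4819 against 2061 to 2953 CPM. They also overlapped for the macrophage and lymphocyte, corticotroph and melanotroph, endothelial, pericyte and smooth muscle, and posterior lobe markers. For fibroblasts and meninges they did not, at 304 to 745 against 835 to 967 CPM. Without nicotine 2 the medians were -0.55 for fibroblast and meninges, -1.33 for blood, -0.40 for macrophage and lymphocyte and -0.64 for corticotroph and melanotroph markers. They were 0.33 for gonadotroph, 0.58 for endothelial, 1.23 for pericyte and 1.01 for posterior lobe markers, and for lactotroph markers the median was 0.02, against -0.16 with all libraries. Control 3 stood apart for some of these markers. Its posterior lobe genes Col25a1, Nkx2-1 and Rax were at 0.925, 0.185 and 0.291 CPM, against at least 3.41, 1.36 and 2.97 CPM elsewhere. Scn7a and Gfap of the same list were not lowest there. Pax7 and Pcsk2 were highest in control 3, at 93.6 and 278 CPM. The part of these values in the levels of the 8 genes was not tested.

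The genes whose profile over the 6 libraries was closest to that of each member were found by the mean absolute difference of centred log2 CPM, among tested genes with at least 1 CPM on average. For Pgr the closest was Klf11, a zinc finger repressor gene, at a mean difference of 0.0868. Klf11 was at 7.43, 15.9 and 7.80 CPM in nicotine and 12.6, 10.1 and 13.4 CPM in control, low in nicotine 1 and 3 and highest in nicotine 2 as Pgr was. The next for Pgr were LOC102548467 (0.101) and Mms22l (0.103). The immediate early gene Fos, from the estrogen response list, was low in nicotine 1 and 3 as well, but also in control 2, at 29.0, 120 and 26.1 CPM in nicotine and 114, 28.2 and 92.7 CPM in control.

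**Figure D3:**
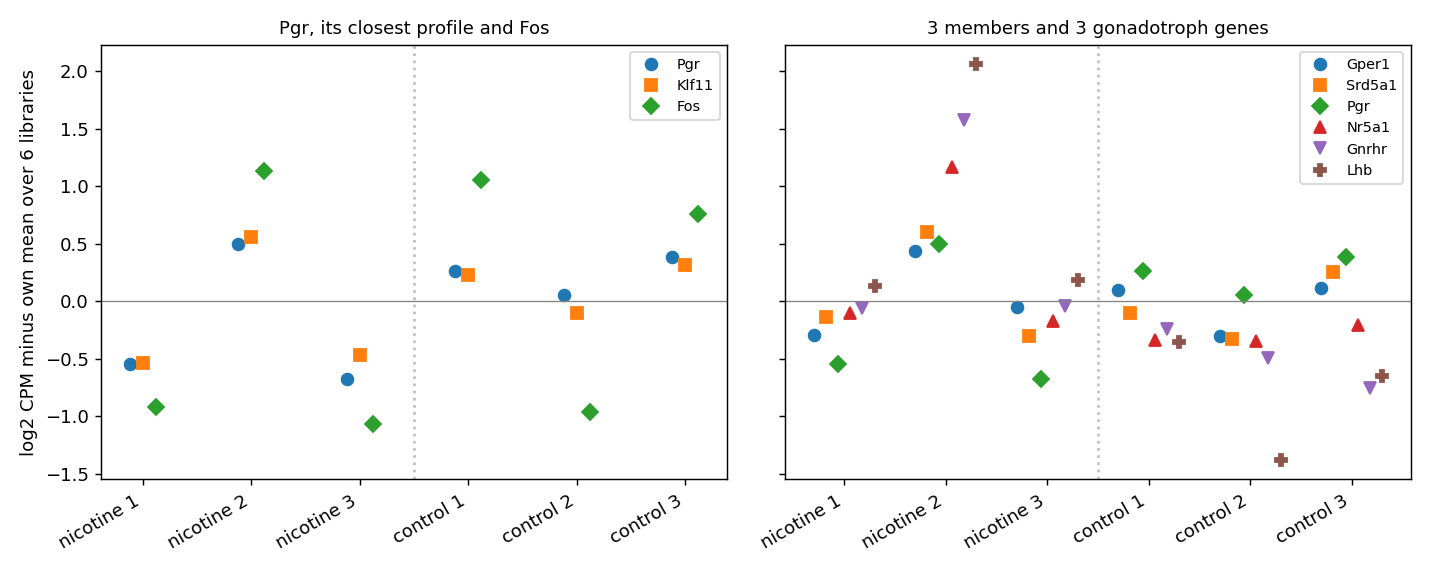
Log2 CPM of each gene minus its own mean over the 6 libraries, by library, for Pgr, Klf11 and Fos (left) and for Gper1, Srd5a1 and Pgr with the gonadotroph genes Nr5a1, Gnrhr and Lhb (right). All of these genes are highest in nicotine 2, where the gonadotroph genes rise further above their means than the 3 members do.

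For the other members, the closest profiles followed at mean differences from 0.0180 to 0.311. Nae1 (0.0180), Apool and Ociad2 were nearest to Pgrmc1, and Arhgef28 (0.0306), Foxk2 and Usp39 to Esr1. Wdr27 (0.0315), Dhx35 and Zdhhc24 were nearest to Gper1, and Phlpp2 (0.0492), Arf3 and Kpnb1 to Srd5a1. Abcg2 (0.0601), Celf5 and NEWGENE_1309446 were nearest to Esr2. No gene came close to Greb1, for which Itgax was nearest at 0.311, followed by Map3k9 and LOC108348215.

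Genes known to respond to estradiol in the pituitary or other tissues had values in both directions. Of the 22 on the list 21 were tested (Tff1 did not pass the filter), with 12 log2 fold changes above 0, 9 below, and a median of 0.04. edgeR called none, and 1 was under an unadjusted p of 0.05. That gene was Igfbp4, which encodes a binding protein that restrains insulin-like growth factors, at 67.2, 81.8 and 94.8 CPM in nicotine and 53.0, 36.8 and 26.7 CPM in control. All 3 nicotine libraries were above all controls, with a log2 fold change of 1.07 (SE 0.24, edgeR adjusted p = 0.702), and DESeq2 called it with an adjusted p of 0.0165. The scaffold gene Pdzk1 had a log2 fold change of -0.98 (edgeR adjusted p = 0.813) with all nicotine libraries below all controls. Its levels were under 1 CPM, at 0.149, 0.271 and 0.314 CPM in nicotine and 0.443, 0.681 and 0.317 CPM in control. Nicotine 3 and control 3 were thus nearly equal. Over all tested genes, nicotine libraries were all above the controls for 6.12% and all below for 5.14%. Prl, the most abundant gene of the list, had -0.22 with overlap (edgeR adjusted p = 0.954), and Xbp1, a factor of the secretory pathway, had -0.01. Without nicotine 2, 2 genes of the list were under an unadjusted p of 0.05, 1 in each direction.

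The 18 coregulators, proteins that the nuclear receptors recruit to genes, had 14 log2 fold changes above 0 and 4 below, with a median of 0.11, where 51% of all tested genes were above 0. None was called by edgeR or DESeq2, and 1 passed an unadjusted p of 0.05. It was Carm1, an arginine methyltransferase, at 30.8, 44.4 and 32.8 CPM in nicotine against 21.5, 26.2 and 26.1 CPM in control, with a log2 fold change of 0.55 (SE 0.19, edgeR adjusted p = 0.760). All its nicotine libraries were above all controls, which held for 3 of the 18 genes and for 6.12% of all genes. Ddx5, Prmt1 and Rbm39, the most abundant of the list, had log2 fold changes of -0.00055, -0.36 and -0.10. Without nicotine 2, 4 of the 18 were under an unadjusted p of 0.05, all higher, where 3.88% of all genes in that fit were, and the median was 0.16. Whether the list stands apart was not tested.

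The 15 chaperones, which fold steroid receptors and hold them ready for hormone, had 12 values above 0 and 3 below. Their median was 0.08 with no call by either tool, and 51% of all tested genes were above 0. Fkbp5, a cochaperone gene induced by glucocorticoids and progestins, was at 60.6, 101 and 69.5 CPM in nicotine and 56.3, 52.4 and 54.6 CPM in control. All its nicotine libraries were above all controls, as for 6.12% of all tested genes. Its log2 fold change was 0.50 (SE 0.19, edgeR adjusted p = 0.800). Of the 15 genes, Fkbp5 alone was under an unadjusted p of 0.05 in edgeR with all libraries. Hsp90ab1, Hspa8 and Hsp90aa1, the most abundant, had 0.11, 0.17 and 0.11. Ptges3, the gene of another cochaperone, had -0.27. Without nicotine 2, 10 values were above 0, 5 were below, and none was under an unadjusted p of 0.05 in edgeR.

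The 11 genes listed beside Pgrmc1 were its relatives or partners and the membrane protein genes Paqr3 to Paqr9. They were split, with 5 values above 0, 6 below and a median of -0.02. None passed an unadjusted p of 0.05 in the edgeR fit, none was called by DESeq2, and all overlapped between the groups. The most abundant were Serbp1, an RNA-binding partner of PGRMC1, with a log2 fold change of -0.11, Pgrmc2 with -0.15, and Nenf with -0.30. Nenf was lowest in nicotine 2, at 69.3 CPM against 129 to 164.5 CPM in the others, as Pgrmc1 was. Paqr4 had the highest value, 0.42.

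The estrogen-related receptors share sequence with the estrogen receptors but do not bind estradiol. These genes and their coactivators Ppargc1a and Ppargc1b, 5 in all, had a median of 0.07, with 3 above 0 and 2 below. Esrrb was at 2.23, 8.60 and 3.67 CPM in nicotine and 3.62, 1.65 and 0.370 CPM in control, with overlap. Its log2 fold change was 1.46 (SE 0.63, edgeR adjusted p = 0.806), the only value of the 5 under an unadjusted p of 0.05, and its highest library was nicotine 2. Without that library the median of the list was -0.04 and none was under 0.05. Esrra and Esrrg had -0.11 and 0.07, and Ppargc1b had 0.22.

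Enzymes and carriers that make steroids from cholesterol were tested in part, since several did not pass the filter. Of 16 genes 10 were tested, and Cyp11a1, Cyp17a1, Hsd3b1, Hsd3b2, Hsd3b5 and Hsd17b3 were not. The 10 had 3 values above 0 and 7 below, with a median of -0.07, no call by either tool and none under an unadjusted p of 0.05. Por, which passes electrons to cytochrome P450 enzymes including aromatase, was at 179, 221 and 192 CPM in nicotine and 172, 177 and 174 CPM in control. Its groups did not overlap, with a log2 fold change of 0.18 (SE 0.15, edgeR adjusted p = 0.844). The cholesterol carrier gene Star had -0.46 and the ferredoxin gene Fdx1 -0.38, both with overlap, and Hsd17b12 and Cyb5a had -0.23 and 0.01.

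Among genes that convert, conjugate or break down steroids, Sts was higher and Cyp1b1 and Akr1c14 were lower in nicotine without overlap, although none was called. All nicotine libraries were above all controls for 6.12% of tested genes and below for 5.14%. Of 22 genes 12 were tested, with 2 values above 0 and 10 below and a median of -0.09. The other 10, Srd5a2 and Sult1e1 among them, did not pass the filter. None was called by either tool, and 3 were under an unadjusted p of 0.05 in edgeR, 1 higher and 2 lower, where 3.13% of all tested genes were higher and 3.01% lower.

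Sts, the sulfatase that frees estrone and dehydroepiandrosterone from their sulfates, was at 13.6, 13.97 and 17.7 CPM in nicotine and 8.64, 9.48 and 10.9 CPM in control. All nicotine libraries were above all controls, with a log2 fold change of 0.64 (SE 0.19, edgeR adjusted p = 0.760). Cyp1b1, which hydroxylates estradiol, was at 8.83, 5.12 and 12.9 CPM in nicotine and 16.4, 25.6 and 13.7 CPM in control. All nicotine libraries were below all controls, with a log2 fold change of -1.06 (SE 0.33, edgeR adjusted p = 0.760). The summed fibroblast and meninges markers were below the control range in the same libraries. Their part in the level of Cyp1b1 was not tested. Akr1c14, a hydroxysteroid dehydrogenase, was at 15.6, 5.69 and 17.8 CPM in nicotine and 18.3, 27.7 and 20.5 CPM in control, with a log2 fold change of -0.77 (SE 0.35, edgeR adjusted p = 0.808). Dhrs9, a dehydrogenase of retinol and steroids, had -1.55 (SE 0.56, edgeR adjusted p = 0.781) at levels under 1 CPM, with overlap. Hsd17b10 and Hsd17b4, the most abundant, had -0.11 and -0.05.

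**Figure D4:**
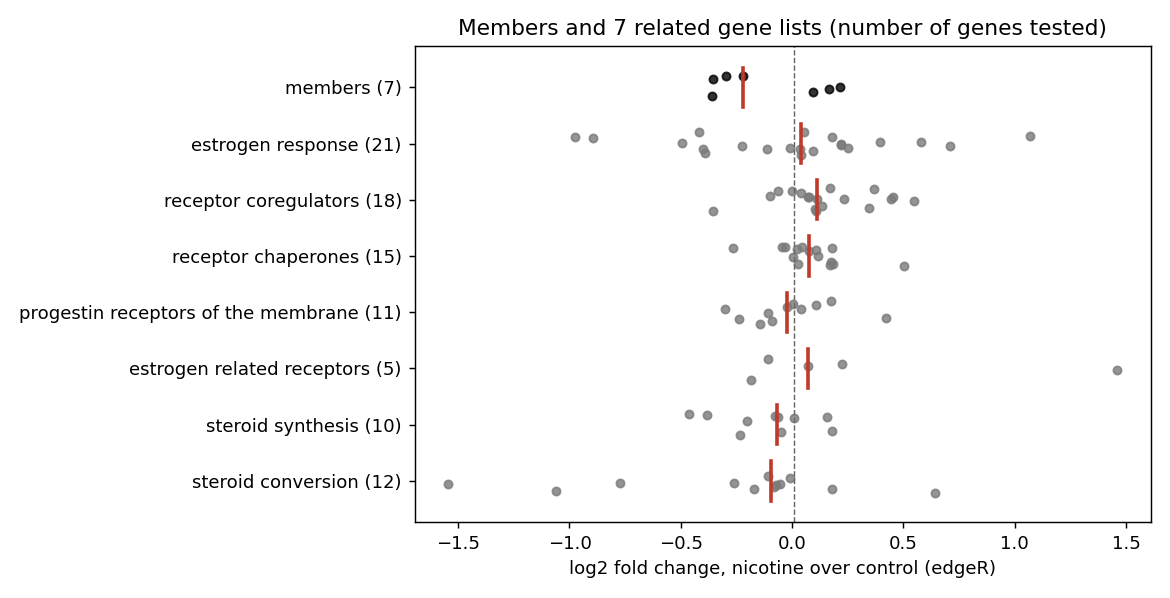
Log2 fold change of nicotine over control for each tested gene of the members and of the 7 related lists. Points are genes and the bar of each list is its median, which runs from -0.22 for the members to 0.11 for the coregulators.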

How the data were processed

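RNA from pituitary glands of 3 nicotine-exposed and 3 control male rats was sequenced as paired-end stranded libraries. According to the labels and the study's methods, the authors aligned reads with HISAT2 2.1.0 to the rat genome rn7 and assigned them to RefSeq genes with featureCounts. The authors deposited raw counts, 1 whole number per gene symbol and library, without normalization. Whether reads or pairs were counted, how reads with several alignments were treated and which strand setting was used are not given in the sources used here.

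Counts were analysed in R 4.3.3 with edgeR 4.0.16. filterByExpr kept 17292 of the 24546 genes with a count, and TMM factors were 0.957 to 1.07. Groups were compared by edgeR's quasi-likelihood test without covariates, with Benjamini-Hochberg adjustment over all tested genes. The thresholds, taken from the study's methods, were 0.1 for the adjusted p and 1.5 for the fold. The study used DESeq2, which served as an alternative here (1.42.0), as did limma 3.58.1. Intervals are at the 95% level. Depth was 28318383 to 85977002 counts per library, so genes under about 1 CPM rest on few counts.

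The 8 genes and all lists were chosen with earlier results of these data known. Named from each list were genes called by edgeR or DESeq2, the 3 most abundant and the 2 with the largest absolute log2 fold change, except for 2 genes that are not reported here. For each tested member the 3 genes with the closest profile were named. Genes named for an unadjusted p under 0.05, for groups that do not overlap, or as cell type markers were chosen after their values were seen. Gene and transcript lengths of the build were not used here, so levels of different genes are not compared, and the planned levels per length were not computed. Promoters are from RefSeq (GRCr8), another build than that of the counts, and were matched by symbol.

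Alternatives were DESeq2, voom with sample quality weights, RLE factors, unscaled library totals, counts thinned to the smallest library, a filter of 10 counts in all libraries or none, a stricter adjusted p of 0.05, no fold threshold, a block for replicate number, and the omission of single libraries. DESeq2 with single libraries omitted was added after seeing the data. The study's testis measurements were not used here.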

Additional observations from a re-analysis of the deposited data

How the results depend on the processing

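No member was called by edgeR, voom or DESeq2 under any alternative listed above with all 6 libraries, nor by edgeR with any 1 left out, and 92 of 95 values of the log2 fold changes of members kept their direction and side of the threshold. The 3 that reversed were Gper1 at -0.15 without nicotine 2 and at -0.04 without control 2, and Srd5a1 at -0.19 without nicotine 2. Leaving out each library moved Pgr between -0.86 and -0.15, Esr1 between 0.16 and 0.31, Pgrmc1 between -0.35 and -0.07, Esr2 between -0.45 and -0.09, Greb1 between -0.72 and -0.05, Gper1 between -0.15 and 0.24, and Srd5a1 between -0.19 and 0.35. With DESeq2 leaving out each library, chosen after seeing the data, 0 to 1 members were called, the 1 being Pgr without nicotine 2. There Gper1 reversed to -0.15 without nicotine 2 and to -0.027 without control 2, Srd5a1 to -0.18 without nicotine 2, and Greb1 to 0.11 without control 3. The cause was not tested. Over all genes, the 0 calls of edgeR (1062 at an unadjusted p under 0.05) became 62 with DESeq2, 1 with library totals alone, 2 with no filter, 1 after thinning, 1 with voom weights, and 0 to 9 leaving out a library, 9 without nicotine 3. Deviations of same-numbered libraries correlated at 0.026, -0.20 and -0.078 over genes. These values cannot show whether such libraries shared a litter or a batch. With the replicate number as a block 2 genes and 0 members were called. The list medians kept their place within the spread of replicates except those of the estrogen-related receptors, which ran from -0.04 to 0.19, and of steroid synthesis, from -0.19 to 0.01. The alternative of another gene length was not run. Esr2 and Cyp19a1 are limited by depth. Greb1 rests on few counts too, but its Poisson interval in control 1 lay below those of control 2 and control 3.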
